A study of Mus musculus with 74 samples.

Results

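The 10 genes described here form the growth hormone, STAT5, BCL6 and CUX2 axis of the liver: the receptors Ghr, Prlr and Lepr, the transcription factors Stat5b, Bcl6 and Cux2, the feedback inhibitors Cish and Socs2, and the secreted proteins Igf1 and Igfals. They were taken by symbol from the RNA-seq table, where all 10 of the 10 had a row among 14583 genes. In the 11 ChIP-seq tables, 1456 of 743949 peaks carried one of these symbols as the nearest gene. The set was chosen with RNA-seq values in view, since Cux2 and Lepr were known to be far higher in Gps2 LKO livers, so the RNA differences of the 10 genes between LKO and WT are given as a description: edgeR calls from the fit over all genes are named for orientation only and no p is given.

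All libraries came from livers of mice on a C57BL/6 background, fed chow and 8 to 12 weeks old by the labels. Gps2 LKO mice carried floxed Gps2 alleles and Cre driven by the albumin promoter, which acts in hepatocytes, and their WT littermates carried the floxed alleles without Cre. The Ncor LKO and Smrt LKO mice were liver-specific knockouts with their own WT controls, and the Ppara KO mice lacked PPARα in the whole body. RNA-seq covered 4 WT and 4 Gps2 LKO livers. ChIP-seq used 64 libraries against GPS2, NCOR, PPARα, RNA polymerase II (Pol II) and the histone marks H3K27ac, which is found at active enhancers and promoters, and H3K4me3, which is found at active start sites. GPS2, NCOR and SMRT are subunits of a corepressor complex that nuclear receptors such as PPARα bring to chromatin. The labels number the replicates and name no animals, so the errors measure the spread between these libraries.

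Growth hormone binds GHR on hepatocytes and activates JAK2, which phosphorylates STAT5B. STAT5B then enters the nucleus, binds sites of the form TTCNNNGAA and drives Igf1, Igfals, Cish and Socs2. In the mouse, the pituitary secretes growth hormone in pulses in males and more evenly in females, and the pattern of STAT5B activity sets which liver genes are sex-biased. BCL6, higher in male liver, is a repressor that competes with STAT5 for its sites, and CUX2, nearly confined to female liver, is a repressor of many male-biased genes. PRLR, which binds prolactin, and LEPR, which binds leptin, belong to the same cytokine receptor class as GHR.

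The promoters of Cish and Bcl6 are shown because they held the most TTCNNNGAA matches of the 9 axis genes found in the RefSeq promoter table (GRCm38.p6; 250 bases before to 50 after each start site). Capitals mark TTCNNNGAA, which reads the same on both strands. The Cish promoter, on the plus strand at chr9:107296409-107296708, held 2 matches. A Bcl6 promoter, on the minus strand at chr16:23981234-23981533, held 3. At least 1 match was found in 8.3% of the 32851 promoters in the table, at least 2 in 0.457% and at least 3 in 0.0335%.
Cish promoter: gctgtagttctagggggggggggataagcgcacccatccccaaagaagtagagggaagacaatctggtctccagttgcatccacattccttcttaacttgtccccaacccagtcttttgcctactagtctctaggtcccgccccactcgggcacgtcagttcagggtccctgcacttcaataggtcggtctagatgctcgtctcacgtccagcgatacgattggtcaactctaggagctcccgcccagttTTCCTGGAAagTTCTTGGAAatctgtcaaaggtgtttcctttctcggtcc
Bcl6 promoter: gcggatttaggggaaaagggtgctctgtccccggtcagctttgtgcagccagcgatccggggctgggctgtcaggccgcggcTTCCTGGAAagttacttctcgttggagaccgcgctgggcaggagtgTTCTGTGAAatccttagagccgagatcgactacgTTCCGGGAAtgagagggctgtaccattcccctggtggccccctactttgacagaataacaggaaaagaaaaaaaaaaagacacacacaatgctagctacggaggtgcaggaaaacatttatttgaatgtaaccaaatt

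The 4 PPARα peaks below lie in intron 2 of Cux2 and rose most in Gps2 LKO livers among the peaks of the axis (values follow). They are given from the plus strand of mm9 and capitals mark AGGTCA, the hexamer that nuclear receptors read, searched on both strands. A match within 2 mismatches to DR1, the repeat of AGGTCA with 1 base between that PPARα binds with RXR, was AGGTCACAGTCCA in the peak at chr5:122468283-122468476 and AGTACACAGGTCA in the peak at chr5:122453579-122453783. The other two peaks, at chr5:122449045-122449237 and chr5:122450264-122450507, held no such match. In 200-base windows on the peak centres, the repeat was found in 13.3% of all 102417 PPARα peaks placed on the genome and in 14.1% of the 192 peaks of the axis, and AGGTCA in 31.8% and 32.3%. TTCNNNGAA was in 6.49% and 15.1% of these windows, and in none of the 18 called peaks described further on.
Cux2 peak at chr5:122449045-122449237: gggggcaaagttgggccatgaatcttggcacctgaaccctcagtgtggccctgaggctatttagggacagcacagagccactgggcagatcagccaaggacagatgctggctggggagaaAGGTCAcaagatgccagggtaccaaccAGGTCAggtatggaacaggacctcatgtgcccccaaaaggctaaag
Cux2 peak at chr5:122468283-122468476: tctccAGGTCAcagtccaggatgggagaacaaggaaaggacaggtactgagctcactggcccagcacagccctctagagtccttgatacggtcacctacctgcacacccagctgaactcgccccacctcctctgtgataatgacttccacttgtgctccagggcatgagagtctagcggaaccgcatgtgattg
Cux2 peak at chr5:122453579-122453783: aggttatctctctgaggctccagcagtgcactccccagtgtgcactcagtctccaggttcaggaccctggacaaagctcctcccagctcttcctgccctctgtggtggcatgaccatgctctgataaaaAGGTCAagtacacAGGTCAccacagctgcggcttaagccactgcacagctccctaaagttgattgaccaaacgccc
Cux2 peak at chr5:122450264-122450507: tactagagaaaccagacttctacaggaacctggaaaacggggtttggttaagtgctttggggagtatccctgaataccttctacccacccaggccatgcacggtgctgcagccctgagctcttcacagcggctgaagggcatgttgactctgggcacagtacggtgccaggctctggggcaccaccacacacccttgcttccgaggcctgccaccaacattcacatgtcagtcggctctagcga

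RNA libraries held 13.2 to 20.1 M counted reads and ChIP-seq libraries 7.90 to 46.1 M tags. Every ChIP-seq level below is given in normalized tags, that is, tags per 10000000 total tags of the library. RNA of the targeted gene Gps2 was 239.5 to 265.1 normalized reads in WT and 145.5 to 205.1 in LKO livers, and GPS2 ChIP tags in peaks fell from 7.07% of all tags in the WT library to 0.31% in the LKO library. The 3 WT libraries of PPARα in the Gps2 line differed by less than the sampling noise (chi-square per degree of freedom 0.987 to 0.998) and were counted as 1 sample. By the same measure, LKO replicate 2 of RNA stood at 18.6 to 27.3 from the other LKO libraries. Other LKO pairs of RNA were at 1.51 to 9.33 and WT pairs at 1.65 to 2.43. Without LKO replicate 2, 6970 genes had an edgeR adjusted p below 0.05, against 5477 with all libraries. The Gps2 and Ncor lines carried H3K27ac tags on the Y chromosome, at 428 to 471 and 306 to 371 normalized tags. All 6 libraries of the Smrt line had 0 Y-linked tags and 249 to 289 normalized tags at the Xist peak, against 2.93 to 4.92 in the Ncor line, so these livers carried female signals although the study describes male mice. Any difference between the Smrt line and the others cannot be told apart from sex.

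The RNA of the axis shifted in opposite directions in Gps2 LKO livers. Cux2, Lepr, Prlr, Cish and Socs2 were higher, Bcl6, Ghr and Stat5b were lower, and Igf1 and Igfals stayed close to WT. These 8 of the 10 genes were called, that is, had an adjusted p below 0.05 in the edgeR fit over all genes, where 44.8% of the 12220 genes tested were called; the set was chosen on this contrast, so nothing is read from the count. In bulk liver, fewer cells of a type and less RNA per cell cannot be told apart. All values of the following paragraphs on RNA are normalized read counts, and fold changes are on the log2 scale with their standard error.

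Ghr, the growth hormone receptor, had 11845.8, 12438.8, 12888.4 and 12740 reads in WT and 8530.4, 9546.6, 8054.5 and 8950.3 in LKO. Every LKO library was below every WT library, with a log2 fold change of -0.51 (SE 0.06). The value was -0.36 with the trend of fold change on exon length removed. Prlr, the prolactin receptor, was at 1224.4, 1250.4, 1321 and 1284.4 in WT and at 1959.9, 2492, 1846 and 2070.7 in LKO, 0.72 (SE 0.09) higher on the log2 scale with no overlap, or 1.22 higher with the trend of fold change on exon length removed. Lepr, the leptin receptor, had 70.9, 83.9, 67.4 and 61.6 reads in WT. In LKO livers it had 407.6, 506, 424.6 and 448.1, so the group means, 71 ± 9.4 and 447 ± 43 (SD, n = 4 each), differed 6.29-fold. With the trend on exon length removed, the log2 fold change of Lepr was 2.91. Leprot, which shares its promoter region with Lepr, was at 137 ± 3.0 and 182 ± 18, a log2 fold change of 0.40 (SE 0.10) against 2.65 (SE 0.11) for Lepr, and the 2 genes may share reads.

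Among the transcription factors, Stat5b was at 686, 670.5, 707.6 and 676.1 in WT and at 506, 598, 532.8 and 517.3 in LKO. The groups did not overlap, and the log2 fold change was -0.34 (SE 0.07), or -0.14 with the trend on exon length removed. Stat5a, its neighbour on the chromosome and close relative, went from 168 ± 14 to 109 ± 7.9 (log2 fold change -0.61, SE 0.10). The STAT5 counts may hold reads that either gene could have produced, and how such reads were counted is not given in the sources used here. Bcl6 was at 1318.9, 1416.4, 1429.1 and 1342 in WT and at 365, 420.4, 327.3 and 412.8 in LKO. Each LKO library was far below each WT library, 3.61-fold between the means, with a log2 fold change of -1.85 (SE 0.08). The Bcl6 value was -1.68 with the trend on exon length removed. Cux2 was near the limit of counting in WT, with 5.9, 1.9, 3.7 and 10.1 reads. In LKO livers it had 228.7, 305, 250.7 and 181.6, a 44.7-fold difference of the means and a log2 fold change of 5.49 (SE 0.27). The spread among WT libraries rests on few reads, and over all alternatives, left-out libraries included, this log2 value ran from 5.20 to 5.96. With 6, 2, 4 and 10 unscaled reads in WT, Cux2 passed the read filter through the LKO group and had to differ.

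**Figure D1:**
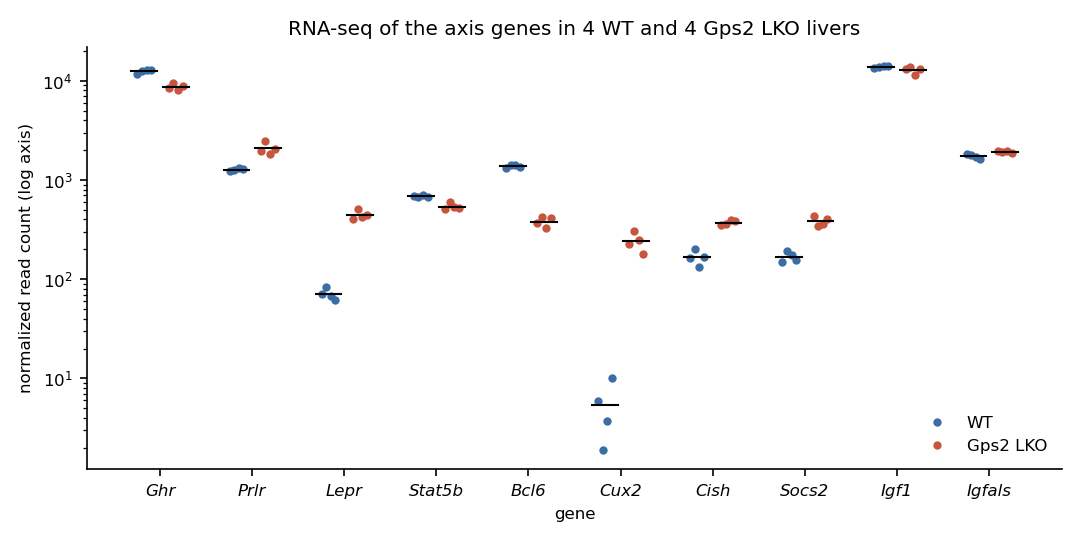
Normalized read counts (log axis) of the 10 axis genes in 4 WT (blue) and 4 Gps2 LKO (red) livers, with 1 point per library and a black line at the group mean. Cux2 and Lepr stand apart upwards and Bcl6 downwards, while the libraries of Igf1 overlap.

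The feedback inhibitors moved together. Cish, which encodes a SOCS-family protein that blocks STAT5 docking on cytokine receptors, had 162.4, 202.7, 133.9 and 167.8 reads in WT and 353.1, 359.1, 394.2 and 385.4 in LKO. Socs2, which restrains growth hormone receptor signalling, had 147.6, 190.5, 177.4 and 154.6 in WT and 436.1, 340.5, 359.8 and 401.1 in LKO. Neither gene's groups overlapped, and the log2 fold changes were 1.16 (SE 0.11) and 1.19 (SE 0.11).

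Igf1, the circulating growth factor, ranged from 13543.7 to 14061.8 in WT and from 11465.4 to 13939 in LKO livers. The groups overlapped, with a log2 fold change of -0.10 (SE 0.06). Its sign depended on the treatment of exon length, which moved the value to 0.24, and the value was called in that fit and without LKO replicate 2 (-0.16). Igfals, which carries IGF1 in plasma, ranged from 1648.2 to 1815 in WT and from 1855.1 to 1963 in LKO, a log2 fold change of 0.14 (SE 0.06) that was not called although the groups did not overlap. With the trend on exon length removed, the Igfals value was 0.06. Groups without overlap were found for 39.1% of all genes tested.

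In RPKM, that is, per kilobase of exon and scaled to library depth, the order of levels in WT livers was Ghr (174 ± 6.4), Igf1 (107 ± 1.8), Igfals (52.1 ± 2.3), Bcl6 (17.3 ± 0.68), Stat5b (7.93 ± 0.19) and Prlr (5.97 ± 0.20), each separated from the next. Socs2 (3.91 ± 0.46) and Cish (3.49 ± 0.59) overlapped, followed by Lepr (0.674 ± 0.090) and Cux2 (0.0656 ± 0.043). In LKO livers Ghr (122 ± 8.8), Igf1 (99.7 ± 8.0) and Igfals (57.4 ± 1.4) kept the top ranks. Prlr (9.83 ± 1.3), Socs2 (8.98 ± 1.00) and Cish (7.80 ± 0.42) came next, with Prlr overlapping Socs2 and Socs2 overlapping Cish. Stat5b (6.24 ± 0.48) stood apart, Bcl6 (4.79 ± 0.55) overlapped Lepr (4.24 ± 0.41), and Cux2 (2.93 ± 0.62) was last.

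Other genes of the same signalling pathways moved in both directions. Of 24 tested genes of growth hormone, prolactin and leptin receptor signalling and of the IGF carriers, 4 rose, 10 fell and 10 were not called, with a median log2 fold change of -0.14 against 0.03 for all genes. Over all genes tested, 23.4% rose and 21.4% fell. The IGF binding proteins Igfbp3 (0.78, SE 0.09), Igfbp2 (0.65, SE 0.11) and Igfbp4 (0.32, SE 0.06) rose, as did Leprot. The lowest values were those of Igf2r (-0.68, SE 0.13), the scavenger receptor of IGF2, Irs1 (-0.67, SE 0.15), an adaptor of the insulin and IGF1 receptors, Stat5a and the insulin receptor Insr (-0.49, SE 0.11). The kinase Jak2 was at 300 ± 17 in WT and 301 ± 12 in LKO livers.

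The sex-biased genes of the liver separated by direction. Of the 29 female-biased genes listed, 27 had a row and 21 were tested, of which 19 rose, none fell and 2 were not called, with a median log2 fold change of 1.68. The 6 not tested had too few reads, and 5 of the tested genes had under 10 reads in every WT library, so they passed the filter only through the LKO group and had to differ; without these, 14 of 16 rose. The largest values were those of the cytochromes P450 Cyp2b9 (8.74, SE 0.19) and Cyp2a4 (8.51, SE 0.17), the sulfotransferase Sult2a2 (7.34, SE 0.72) and the oxidase Hao2 (6.60, SE 0.22). Sult2a2 had 0 reads in every WT library, so its value depends on the prior count of the fit. Slco1a4 (0.00, SE 0.06) and Tox (0.27, SE 0.17) were not called. The PPARα targets Cyp4a14, Cyp4a10 and Acot3 are also on this list.

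Of the 30 male-biased genes, all tested, 26 fell, none rose and 4 were not called, with a median of -0.94. Of these, 3 had under 10 reads in every LKO library, and without them 23 of 27 fell. The lowest were Moxd1 (-8.43, SE 0.32), the major urinary proteins Mup1 (-6.89, SE 0.40), Mup21 (-4.35, SE 0.10) and Mup7 (-2.91, SE 0.07). Mup genes are near-identical copies, so their single values are uncertain. Mup20 (0.05, SE 0.09), Cspg5, Serpina12 and Keg1 were not called. The livers themselves were male by their sex-linked genes: the Y-linked Ddx3y and Eif2s3y were at 1320 and 959 in WT and 1371 and 1038 in LKO, and Xist at 2.92 and 4.85. Of the 4 sex-linked genes tested, 2 were called lower in LKO and 0 higher, with a lowest log2 fold change of -0.42. The female-biased and male-biased lists had both been seen to move in an earlier look at these data, so their counts are not independent evidence of their direction.

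**Figure D2:**
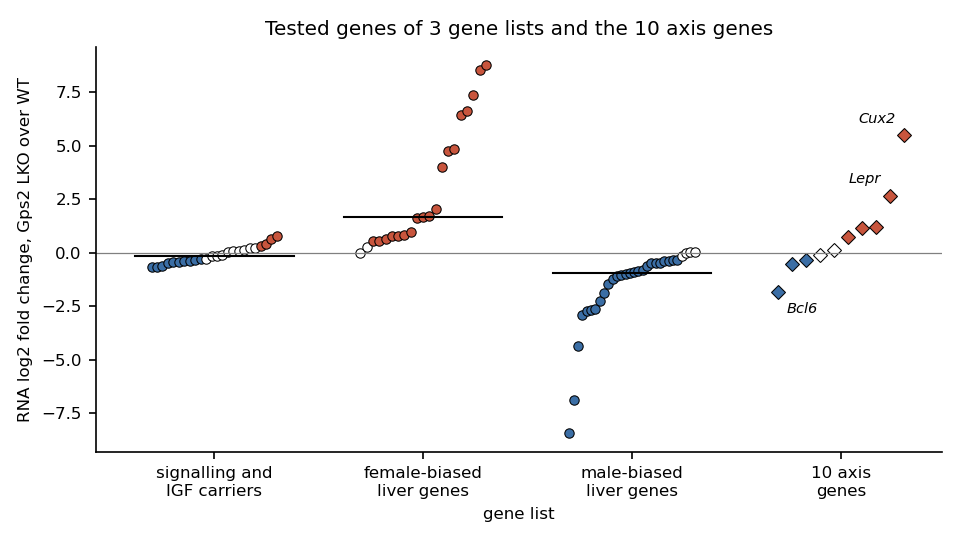
RNA log2 fold change (Gps2 LKO over WT) of each tested gene of 3 lists and of the 10 axis genes, ordered within each list; filled points were called, red up and blue down, and black lines are list medians. Called female-biased genes lie above 0 (19 of 21) and called male-biased genes below 0 (26 of 30).

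Markers of other liver cells moved in the same libraries. Of the Kupffer cell markers 7 of 8 tested rose, with a summed level of 1861.4 to 1923.7 in WT and 2608.2 to 2987.4 in LKO livers. All 7 stellate cell markers rose, with sums of 2886.9 to 3012.3 and 5375 to 5563.5. Endothelial (3 of 7), bile duct (3 of 5) and lymphocyte markers (1 of 2 tested) also rose in part, with sums of 2160.6 to 2274.8 and 2427.9 to 2584.4, 1022.2 to 1091 and 1446.9 to 1770.2, and 90.5 to 114.2 and 150.5 to 169.4. Hepatocyte markers rose in 4 of 8 cases and fell in 1, with sums from 1830149 to 1892613.7 in WT and 2434765.6 to 2887480.6 in LKO. The part of these shifts in the values of the axis genes, some of which other liver cells also express, was not tested.

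GPS2 itself was mapped in 1 WT and 1 LKO library, without a test. GPS2 tags lay at all 10 loci in WT liver. Of 109 GPS2 peaks, 108 were at least 2-fold lower in the LKO library, against 99.6% of all GPS2 peaks. The highest peak stood at -45 bases from the Socs2 start (chr10:94879468-94879604), with 71.6 normalized tags in WT (95% Poisson interval 58.9 to 86.3) and 0 in LKO (up to 2.49). At Cux2, 7 peaks held 179 normalized tags (158 to 201) in WT and 5.41 (2.34 to 10.7) in LKO. At Lepr, 8 peaks held 171 (151 to 193) and 4.06 (1.49 to 8.83), and at Prlr 21 peaks held 409 (378 to 442) and 25 (17.6 to 34.5). These and all other Poisson intervals cover counting error only.

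H3K27ac rose at Cux2 and Prlr in Gps2 LKO livers. Summed over the peaks of a locus, in normalized tags, Cux2 had 189.5 and 180.1 in WT and 347.2 and 448.7 in LKO, a log2 fold change of 1.11 (SE 0.13, edgeR adjusted p = 0.0128). Prlr had 1480.1 and 1273.6 in WT and 2581.5 and 2092.5 in LKO (0.76, SE 0.12, edgeR adjusted p = 0.0343), a call lost with TMM scaling (adjusted p = 0.0516). Both LKO libraries were above both WT libraries at these loci, but the share of all loci without overlap was not counted. The other 8 loci were not called, with log2 fold changes between -0.19 at Igf1 and 0.21 at Socs2, while 1.63% of all loci were called. Lepr had 867 and 1045.8 in WT and 1071.1 and 872.5 in LKO, and Bcl6 6832.2 and 6300.6 against 6622 and 5970.4, so the groups overlapped at both.

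Of 93 tested H3K27ac peaks of the axis, 6 were called, all higher, against 1.42% of all peaks called and 1.21% called higher. Of these, 3 lay in intron 2 of Cux2, and the highest, at chr5:122466147-122470964, had 27.58 and 28.94 normalized tags in WT and 91.42 and 141.63 in LKO (2.04, SE 0.23, edgeR adjusted p = 0.0119). Peaks were kept where at least 2 libraries held them, whatever their group, so this region may have been kept through the LKO libraries alone. A region kept in that way had to be higher in LKO livers, and this was not tested. The locus sums of Cux2 for H3K27ac and H3K4me3 include it. The Cux2 promoter peak was at 82.34 and 69.11 in WT and 69.6 and 84.57 in LKO. The other 3 were in intron 1 of Prlr, among them chr15:10106751-10111867, 2316 bases from a start site, with 243.82 and 224.35 in WT and 546.63 and 422.84 in LKO, a 2.07-fold difference of the means (edgeR adjusted p = 0.0158). With 2 libraries a group, leaving out 1 sets a lone library against 2 and takes the spread from the other group. No axis peak or locus passed without WT replicate 1 or without WT replicate 2, 20 peaks and 5 loci passed without LKO replicate 1, and 13 peaks without LKO replicate 2.

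H3K4me3 was called higher at 3 loci, Cux2, Prlr and Lepr, against 0.898% of all loci called and 0.795% called higher. Cux2 went from 304 and 288 normalized tags to 454.5 and 522.1 (0.72, SE 0.09, edgeR adjusted p = 0.0013). Lepr went from 215 and 199.4 to 306.1 and 294.3 (0.53, SE 0.11, edgeR adjusted p = 0.0352), and Prlr from 553.4 and 484.2 to 836.3 and 685 (0.55, SE 0.09, edgeR adjusted p = 0.0096; 0.0589 with TMM scaling). In each case both LKO libraries exceeded both WT libraries, but the share of all loci without overlap was not counted. Without WT replicate 1 or WT replicate 2 none of the loci passed, and without LKO replicate 1 only 1 did.

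Of 23 tested H3K4me3 peaks, 3 were called higher and 1 lower, against 0.798% and 0.118% of all peaks and 0.916% together. The peak over the Lepr start region (chr4:101389622-101392432) had 128.86 and 110.13 in WT and 204.62 and 189.47 in LKO (0.72, SE 0.15, edgeR adjusted p = 0.0482), while its H3K27ac was 51.56 and 49.36 against 72.23 and 63.51 and was not called. The Cux2 intron 2 peak at chr5:122466147-122470964 rose from 13.66 and 16.94 to 52.6 and 66 (1.95, SE 0.28, edgeR adjusted p = 0.0037). For this mark too, the region may have been kept through the LKO libraries alone, which was not tested. The Prlr peak at chr15:10106751-10111867 rose by 0.70 (SE 0.09, edgeR adjusted p = 0.0022). A region at -96386 bases from the Bcl6 start (chr16:24077211-24092957) was lower, with 361.63 and 248.27 in WT and 155.17 and 109.11 in LKO (-1.21, SE 0.19, edgeR adjusted p = 0.0071). The Cux2 and Prlr peaks passed whichever library was left out, the Bcl6 peak was lost without WT replicate 1, and the Lepr peak without WT replicate 2, LKO replicate 1 or LKO replicate 2. When all peaks of the table shared by both marks were tested, 0 axis peaks were called for H3K4me3.

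PPARα tags in the Gps2 line were higher over the genome in LKO livers: 28.9% to 32.1% of tags lay in peaks against 19.2% to 21.9% in WT, and the median log2 fold change was 0.61 for peaks and 0.56 for loci. The distance from these medians is given beside the tests. Cux2 stood 1.04 above the median of all loci, with 282.2, 387.6 and 319 normalized tags in the WT libraries and 1075.7, 1056.2 and 922.3 in the LKO libraries (1.60, SE 0.17, edgeR adjusted p = 1.5e-16). In this fit the WT libraries count as 1 sample, so the test sets 1 WT sample against 3 LKO samples. The spread comes from the LKO group alone, and it is a test against no change, not against the median. The Cux2 sum also holds the Cux2 peaks printed above, which may be listed only because LKO libraries had a peak there. Their part in the locus value was not tested. Of the 10 loci 6 were called (Ghr, Stat5b, Cux2, Igf1, Lepr and Prlr), against 43.3% of all loci, and with TMM scaling only Cux2 was. Prlr stood 0.20 above the median, Lepr 0.05 above it, and Bcl6 0.28 below it. Without LKO replicate 2 only 2 loci were called, Cux2 and Prlr.

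Of the 192 PPARα peaks, 18 were called and all were higher, against 2.53% of all peaks called and 2.51% called higher, again with 1 WT sample against 3 LKO samples. They were 13 peaks of Cux2, 2 of Ghr, 2 of Igf1 and 1 of Prlr, and 11 passed without LKO replicate 3. Only 4 peaks were called with TMM scaling and 4 with DESeq2, in both cases the 4 Cux2 peaks printed above, and the calls at Ghr, Igf1 and Prlr were lost. The peak at chr5:122449045-122449237, 48693 bases into the gene, had 12.66, 11.4 and 7.89 normalized tags in WT and 170.09, 143.99 and 136.03 in LKO (3.80, SE 0.43, edgeR adjusted p = 6.9e-14). The peak at chr5:122468283-122468476 had 2.53, 5.7 and 3.38 in WT and 80.45, 65.36 and 52.77 in LKO (3.97, SE 0.53). The peak at chr5:122453579-122453783 went from 1.27, 6.65 and 5.64 to 72.4, 74.84 and 56.29 (3.78, SE 0.51), and that at chr5:122450264-122450507 from 1.27, 9.5 and 9.02 to 75.85, 70.1 and 65.08 (3.31, SE 0.47). At all 4 peaks each LKO library was several times above each WT library. Tags in WT were few, so these 4 peaks may be listed only because LKO libraries had a peak there. A peak listed in that way had to be higher in LKO livers, and this was not tested. Outside Cux2, the largest was a peak at -1713 bases from the Igf1 start (chr10:87319194-87319400), with 7.59, 8.55 and 3.38 in WT and 59.76, 23.68 and 34.59 in LKO (2.51, SE 0.51, edgeR adjusted p = 0.0010; 0.187 with TMM scaling).

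NCOR tags rose within the same intron of Cux2 in Gps2 LKO livers. Of 151 NCOR peaks of the axis, 4 were called, all in intron 2 of Cux2 and all higher, against 0.0173% of all peaks called, 0.0124% higher and 0.00495% lower. These 4 peaks held few tags in WT, so they may be listed only because LKO libraries had a peak there. A peak listed in that way had to be higher in LKO livers, and this was not tested. The strongest, at chr5:122448996-122449250, had 4.07, 2.19 and 1.16 normalized tags in WT and 38.49, 51.92 and 19.53 in LKO (3.81, SE 0.58, edgeR adjusted p = 3.0e-06). At chr5:122450282-122450567 the values were 4.52, 2.74 and 0.58 against 25.82, 35.98 and 10.85 (3.13, SE 0.56, edgeR adjusted p = 0.00084). The other two, at chr5:122453588-122453880 and chr5:122458387-122458551, had 3.62, 1.09 and 1.16 against 19.71, 22.62 and 2.71, and 0.9, 0 and 0.58 against 4.69, 14.39 and 1.63, and DESeq2 did not call them. Without WT replicate 2 none of the 4 passed, without WT replicate 3 only 1, and without WT replicate 1, LKO replicate 1 or LKO replicate 2 only 2.

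No locus was called for NCOR in the edgeR fit, in which 0 of the 10 loci had an unadjusted p below 0.05 and 0.0295% of all loci were called, 0.0236% higher and 0.00589% lower, nor by DESeq2. Cux2 had 397.4, 294.5 and 189.6 in WT and 437.9, 677.5 and 250 in LKO, overlapping groups with a log2 fold change of 0.63 (SE 0.42). With TMM scaling it was called (edgeR adjusted p = 0.0081).

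The peaks of the different antibodies met at Cux2. Counting an overlap of at least 1 base, 3 of the 13 called PPARα peaks (23.1%) lay on 3 of the 4 called NCOR peaks (75%), and 6 of the 13 lay on the 3 called H3K27ac peaks. GPS2 peaks of WT liver lay under 4 of the 13 called PPARα peaks and under none of the 4 called NCOR peaks, although all 7 GPS2 peaks of Cux2 overlapped an NCOR and a PPARα peak of the tables. Across the 10 genes, 102 of 109 GPS2 peaks (93.6%) overlapped a PPARα peak and 99 (90.8%) an NCOR peak, against 87.7% and 85.7% of all 49018 GPS2 peaks.

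**Figure D3:**
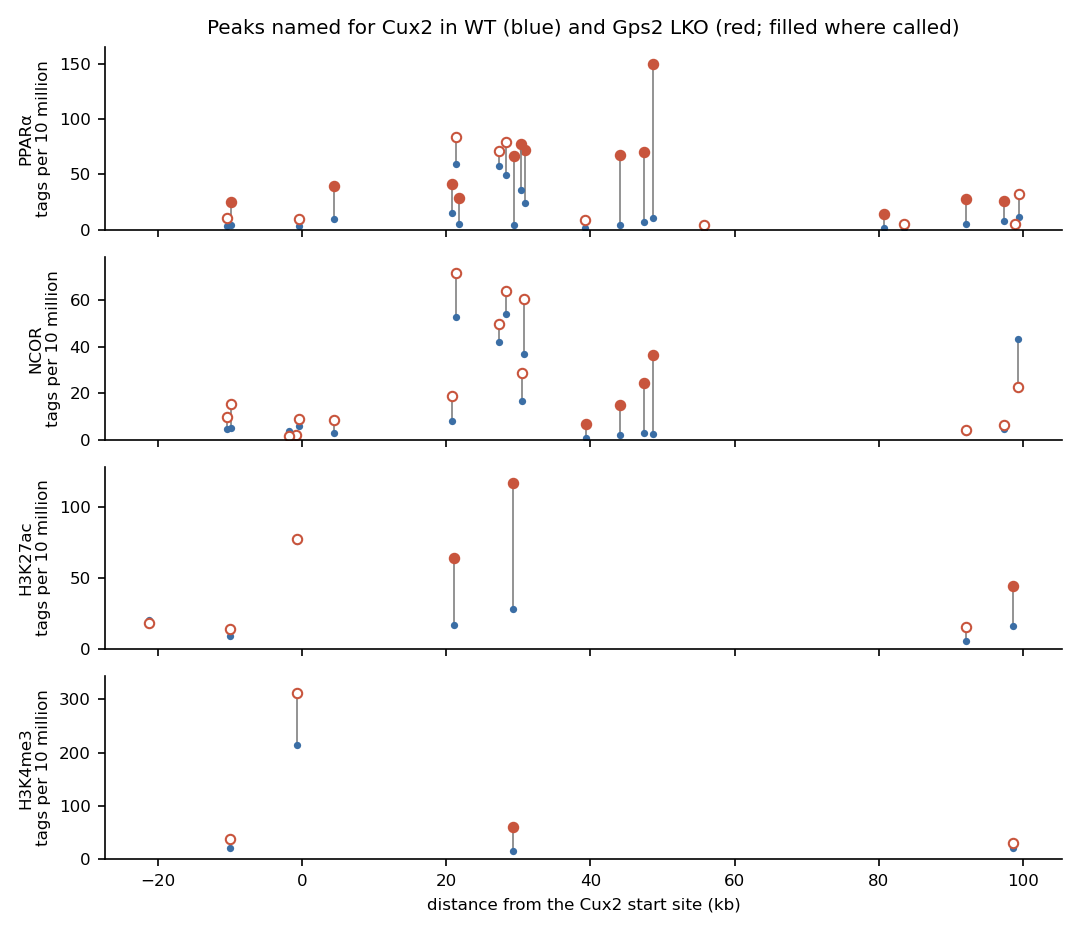
Mean normalized tags (per 10000000 total tags) (vertical axis) at the peaks named for Cux2, against their distance from the Cux2 start site in kb, for PPARα, NCOR, H3K27ac and H3K4me3; blue points are WT, red-rimmed points Gps2 LKO, filled where the peak was called. For PPARα and NCOR the widest gaps include peaks 44153 to 48693 bases into the gene, and for both histone marks the peak at 29279 bases stands out.

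Pol II was mapped in 1 WT and 1 LKO library, without a test. Of its 69 peaks at the axis genes, 16 were at least 2-fold higher and 3 at least 2-fold lower in the LKO library, against 7.72% and 5.94% of all peaks. Lepr held 62.6 normalized tags (95% Poisson interval 49.1 to 78.7) in WT and 177 (154 to 203) in LKO, with 17.2 (10.5 to 26.5) and 53.0 (40.7 to 67.8) at the peak 213 bases from its start. Cish held 100 (83.0 to 120) and 193 (168 to 219), and Socs2 73.8 (59.0 to 91.1) and 111 (92.9 to 132). For these 3 genes the intervals did not overlap.

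Bcl6 held 520 (479 to 563) normalized tags over its Pol II peaks in WT and 639 (594 to 686) in LKO. Its peak at the start site held 196 (171 to 223) and 195 (171 to 222), and a peak 226 bases past another annotated start, in a 5′ untranslated exon, held 45.5 (34.1 to 59.5) in WT and 119 (101 to 141) in LKO. Cux2 had 181 (157 to 207) and 219 (193 to 247) over its peaks, and 19.7 (12.5 to 29.6) and 12.6 (7.06 to 20.8) at its promoter. Ghr (419 and 379), Stat5b (308 and 293), Igf1 (280 and 267) and Prlr (118 and 113) had overlapping intervals, and Igfals had 213 (187 to 241) and 293 (263 to 326).

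In the Ncor line, H3K27ac rose at Prlr and Stat5b and not at Cux2. Prlr had 823.5, 760.7 and 1286.7 normalized tags in WT and 2088.2, 2661.4 and 1504.3 in Ncor LKO (1.12, SE 0.23, edgeR adjusted p = 0.0355; 0.0595 with TMM scaling). Stat5b had 2283.4, 2633.9 and 2174.9 in WT and 3877.4, 3131.2 and 3344 in LKO (0.55, SE 0.11, edgeR adjusted p = 0.0301). The groups did not overlap at either locus, and 3% of all loci were called. The share of all loci without overlap was not counted. Cux2 had 185.1, 198.5 and 257 against 192.9, 265.7 and 139.2, and Cish 1302.4, 1162.9 and 1003.8 against 864.4, 898.2 and 618.6 (-0.54, SE 0.15, edgeR adjusted p = 0.0956). Igfals had 930.2, 989.9 and 828.7 in WT and 777.4, 819.4 and 617.5 in LKO. At Cish and Igfals every LKO library was below every WT library. Neither Prlr nor Stat5b passed without WT replicate 1, WT replicate 2 or LKO replicate 1, and 1 of them passed without WT replicate 3 or LKO replicate 3.

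Of 126 H3K27ac peaks in the Ncor line, 11 rose and 3 fell, against 2.32% and 0.801% of all peaks and 3.12% together. The rises were 8 peaks of Prlr, 2 of Stat5b and 1 of Igf1, and the falls 1 peak of Cish and 2 of Igfals. The strongest Prlr peak, at chr15:10172954-10184765, had 99.59, 93.02 and 127.49 in WT and 361.78, 353.82 and 249.64 in LKO (1.59, SE 0.17, edgeR adjusted p = 0.0028). The main Stat5b peak (chr11:100673913-100705730) went from 1555.84, 1868.72 and 1515.07 to 2879.57, 2279.56 and 2464.51 (0.63, SE 0.12, edgeR adjusted p = 0.0207). Without WT replicate 1 or WT replicate 2, 4 peaks passed, and without LKO replicate 3, 9 did.

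In the Smrt line none of the 10 loci and none of the 126 peaks was called by edgeR, and 0% of all peaks and loci were. At an unadjusted p below 0.05, 16 axis peaks and 1 locus passed, and DESeq2 called 0 axis peaks, 0 axis loci and 68 peaks of the whole table. Cux2 had 1105.9, 1011.9 and 1133.1 in WT and 776.3, 1066.8 and 606 in Smrt LKO (-0.41, SE 0.18), Lepr 1120.8, 829.6 and 1226.8 against 1812.9, 1224.3 and 1432.3 (0.49, SE 0.18), and Prlr 4235.7, 3080.5 and 4248.7 against 3658.7, 4060.7 and 2868.9 (-0.13, SE 0.16). The groups overlapped at Cux2, Lepr and Prlr. The Ncor LKO and Smrt LKO effects differed at 1 of the 126 peaks, against 0.426% of all peaks and 0.33% with a larger value in the Ncor line: the Prlr peak at chr15:10172954-10184765, with Smrt-line values of 528.87, 346.23 and 488.7 (WT) and 507.27, 554.72 and 432.31 (LKO). This single call was lost with a replicate term and on leaving out any of 6 libraries, so it is given as a value only.

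The controls of the 2 lines, counted over the same peaks, stood far apart at Cux2 and Prlr. WT livers of the Smrt line, with female signals, had 1011.9 to 1133.1 normalized H3K27ac tags at Cux2 against 185.1 to 257 in the Ncor line, and 3080.5 to 4248.7 at Prlr against 760.7 to 1286.7. Bcl6 (6779.3 to 8758.8 and 6995.2 to 7841.7) overlapped between them. The Cux2 intron 2 peak of that table at chr5:122466033-122471147, over the region called in Gps2 LKO livers, had 501.31 to 576.74 in the Smrt controls and 15.36 to 72.02 in the Ncor controls. Line and sex cannot be told apart here, and these levels were not tested.

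**Figure D4:**
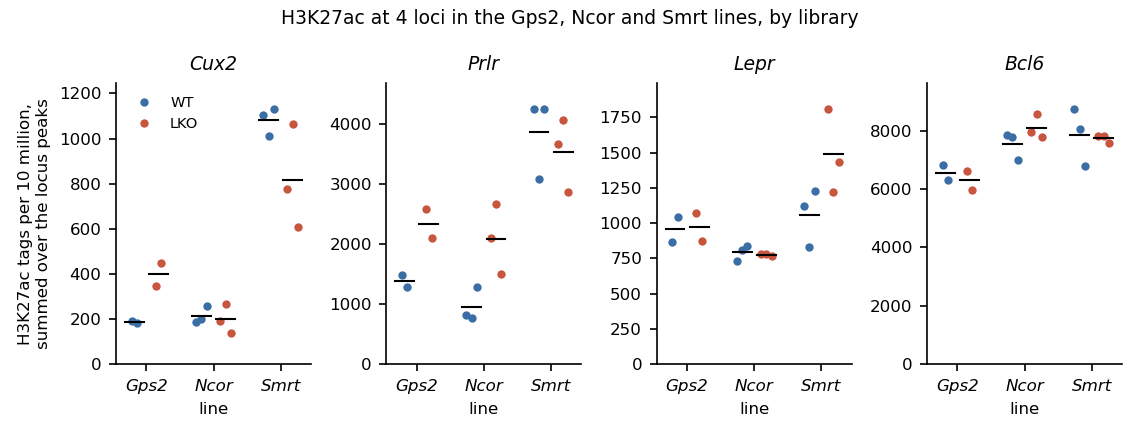
H3K27ac normalized tags (per 10000000 total tags) (vertical axes from 0), summed over the peaks of Cux2, Prlr, Lepr and Bcl6, in WT (blue) and LKO (red) livers of the Gps2, Ncor and Smrt lines; 1 point per library, black lines are means. The Ncor and Smrt lines share 1 peak table and the Gps2 line has its own; Cux2 lies at 606 or above in all 6 Smrt-line libraries and at 448.7 or below in the others.

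GPS2 tags were lower at every axis locus in Ncor LKO livers without passing the test. Log2 fold changes ran from -1.81 (SE 0.57) at Lepr to -1.24 (SE 0.55) at Ghr, with edgeR adjusted p-values from 0.0622 to 0.0819, against a median of -1.09 over all loci. All 10 had an unadjusted p below 0.05, and DESeq2 called all 10. Lepr had 206.7, 147.2 and 50.9 normalized tags in WT and 41.9, 44.9 and 28.6 in LKO, and Cux2 291.2, 316 and 120.6 against 99.1, 76.8 and 58.2. WT replicate 3 was low throughout, with 3.07% of its tags in peaks, and without it all 10 loci and 95 of the 122 peaks passed. With all libraries and scaling to total tags, 0 axis peaks were called by edgeR (0.0338% of all peaks and 0.187% of loci; 63 axis peaks at an unadjusted p below 0.05) and 46 by DESeq2. In edgeR, TMM scaling called 3 axis peaks and 2 loci, filterByExpr 11 peaks, and a replicate block 45 peaks and 6 loci.

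PPARα tags in Ncor LKO livers were not called at any axis peak or locus by edgeR scaled to total tags or by DESeq2, and edgeR with TMM scaling called 5 axis peaks, 2 higher and 3 lower, and 0 loci. Of all peaks 0.196% and of all loci 0.104% were called, and 13 axis peaks and 0 loci had an unadjusted p below 0.05. Log2 fold changes of the loci ran from -0.28 at Cish to 0.33 (SE 0.43) at Prlr, against a median of 0.10. WT replicate 3 was low, with 8.96% of its tags in peaks against 19.3% and 18.6% in the other WT libraries. Prlr had 1015.5, 897 and 496.9 normalized tags in WT and 865.2, 965.1 and 1189.8 in LKO. Cish had 399.8, 310.7 and 135 against 233.3, 229.9 and 230.4. Without WT replicate 3, 6 axis peaks passed.

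PPARα was also mapped in Ppara KO livers. All 10 loci were called lower, with log2 fold changes from -2.52 (SE 0.20) at Igf1 to -1.33 (SE 0.36) at Cux2, against a median of -1.71 and 56.8% called over all loci. Igf1 had 198.2 and 257.7 normalized tags in WT and 43.3 and 35.9 in KO, and it was the only axis locus called with TMM scaling (edgeR adjusted p = 0.0010). Of 113 peaks 43 were called, all lower, against 27.6% of all peaks. With TMM scaling, with a replicate block, without WT replicate 1 and without WT replicate 2 the count was 0. Only 2.14% to 2.44% of WT tags and 0.581% to 0.652% of KO tags lay in peaks of that table. Peaks may be listed only because WT libraries had a peak there. A peak listed in that way had to be lower in KO livers, and this was not tested.

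NCOR tags in Ppara KO livers had a median log2 fold change of -0.32 over all peaks and -0.31 over all loci. Of 203 axis peaks, 10 were called and all were lower (4 of Cux2, 3 of Igf1, 2 of Prlr and 1 of Stat5b), against 2.64% of all peaks called and 2.51% called lower. With TMM scaling 2 were called lower and 2 higher, and DESeq2 called 1, that of Stat5b. The Stat5b peak at chr11:100698379-100698543 had 80.46, 92.88 and 104.48 in WT and 50.68, 51.16 and 32.73 in KO (-1.05, SE 0.22, edgeR adjusted p = 0.00046) and passed whichever library was left out. The Cux2 peak at chr5:122453623-122453847, over a PPARα peak printed above, had 8.94, 7.74 and 30.33 in WT and 2.45, 4.04 and 2.85 in KO (-2.28, SE 0.47, edgeR adjusted p = 0.00025), a call lost without WT replicate 3.

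Of the loci only Cux2 was called for NCOR in Ppara KO livers, with 428.3, 433.5 and 685 in WT and 389.9, 382.4 and 256.9 in KO (-0.59, SE 0.19, edgeR adjusted p = 0.0404; 0.148 with TMM scaling, under which Cish was called higher instead), against 6.02% of all loci called and 5.83% called lower. This call was lost without WT replicate 1, WT replicate 3, KO replicate 1 or KO replicate 3. Without WT replicate 1 or KO replicate 1, 6 axis peaks passed, without WT replicate 3 there were 3, and without KO replicate 3 there were 2.

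GPS2 tags in Ppara KO livers had log2 fold changes from -1.22 (SE 0.49) at Igf1 to -0.54 (SE 0.52) at Cish, against a median of -0.89. Igf1 had 151.2, 149.5 and 223.2 normalized tags in WT and 96.1, 92.3 and 36.8 in KO. Cish had 36.1, 44.9 and 63.9 against 43.7, 41.6 and 14.4. Replicate 3 stood apart in both groups. Tags in peaks were 2.55%, 2.42% and 4.39% in WT and 2.06%, 1.87% and 1.07% in KO. The part of replicate 3 in these falls was not tested. None of the 10 loci and none of the 69 peaks was called by edgeR, against 0.439% of loci and 0.273% of peaks. At an unadjusted p below 0.05, 6 loci and 22 peaks passed, and DESeq2 called 4 loci and 0 peaks.

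**Figure D5:**
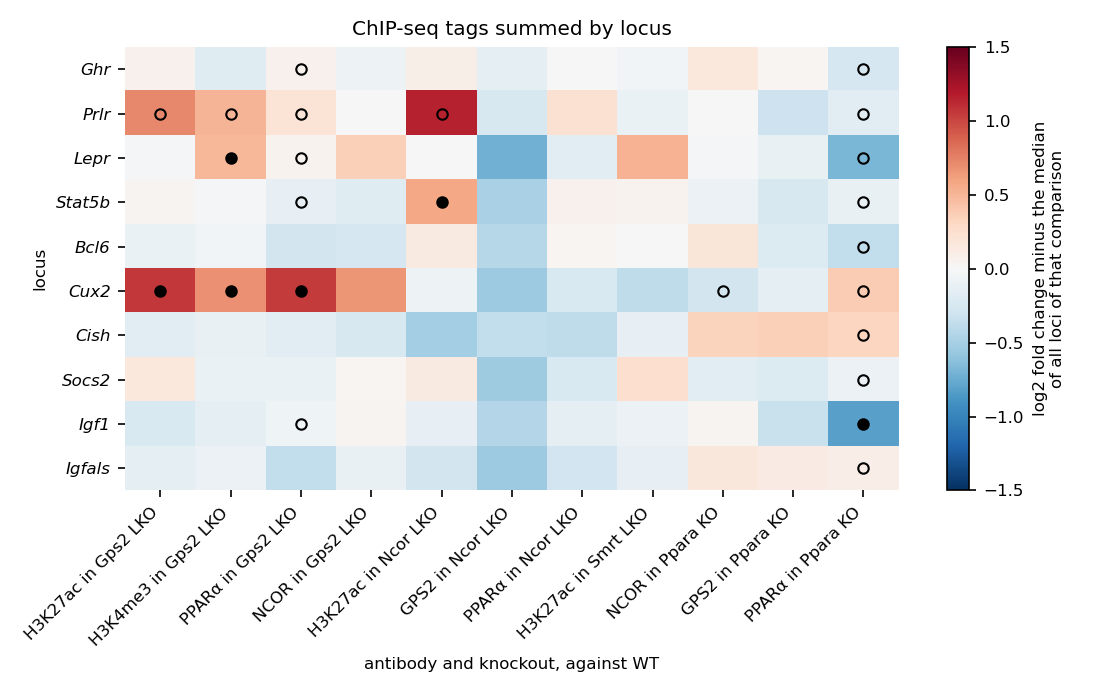
Log2 fold change (knockout over WT) of tags summed by locus, minus the median of all loci of the same comparison (colour scale), for the 10 axis genes (rows) and 11 ChIP-seq comparisons (columns), of which PPARα in the Gps2 line has 1 WT sample. Circles mark loci called at an adjusted p below 0.05 in edgeR, filled where the call also held with TMM scaling. Cux2 carries filled circles for H3K27ac, H3K4me3 and PPARα in Gps2 LKO livers. Its sums include peaks that may be listed or kept only through LKO libraries.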

How the data were processed

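RNA-seq of 8 livers and ChIP-seq of 64 libraries were analysed from tables that the authors deposited. The RNA values are raw read counts per gene, deposited by the authors with exon lengths; exon positions follow GRCm38 although the study describes mm9, and the aligner and counter behind the table could not be settled from its title, the methods and the submitters' processing notes (HISAT2, HOMER and featureCounts are named). The ChIP-seq values are raw tag counts per peak, which the authors made with Bowtie2 (mm9) and HOMER, with each library's total tags in the file headers and the nearest gene per peak. The deposited peak lists of H3K27ac and H3K4me3 carry a constant score per line, per the file headers from HOMER, and only their positions were used, to keep the peaks of a mark that at least 2 libraries held. Columns with the authors' own fold changes and p-values were not used, and 0 columns of per-sample values lacked a sample.

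Counts were tested over the whole of each table with the edgeR quasi-likelihood test (edgeR 4.0.16, R 4.3.3) and Benjamini-Hochberg adjustment at 0.05. RNA was scaled by TMM after filterByExpr. Tags were scaled to total tags, peaks with at least 1 tag were kept, and a locus is the sum of all peaks with the same nearest gene. Alternatives were TMM scaling, DESeq2 (1.42.0), other filters, a replicate block and leaving out each library. Scripts were tested on simulated data. Replicate numbers were not used to pair the samples, since in no comparison with 3 or more pairs did every pair's deviations correlate above 0.1. Some pairs did correlate. The values were 0.16, 0.23, 0.06 and 0.24 for RNA and -0.03, 0.26 and 0.28 for NCOR in Ppara KO. In comparisons with 2 pairs both pairs have the same value by construction. It was 0.18 for H3K27ac and 0.17 for H3K4me3 in Gps2 LKO and 0.02 for PPARα in Ppara KO. Pairing in part of the samples is therefore not settled, and the replicate block is given as an alternative. Libraries with a chi-square per degree of freedom at or below 1.05 were averaged to 1 sample, which applied to the PPARα WT libraries of the Gps2 line. Groups came from the labels, and input libraries were not used here.

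The axis genes and gene lists were chosen with earlier results of these data known. All 10 genes are named in every table, with the peak nearest the start, the highest peak and called peaks (up to 4 a gene and table) as candidates for naming; other genes were named by list.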

Additional observations from a re-analysis of the deposited data

Results flagged for a closer look

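The effects of the Ncor LKO and the Smrt LKO on H3K27ac differed at a Prlr peak in intron 1 (chr15:10172954-10184765). The log2 fold change was 1.59 (SE 0.17) in the Ncor line and 0.13 in the Smrt line, a difference of 1.46 (SE 0.25, edgeR interaction term over 12 libraries, adjusted p = 0.0241; 0.0295 with TMM scaling). In the Ncor line all 3 LKO libraries were above all 3 WT libraries, and in the Smrt line the groups overlapped. The share of all peaks without overlap was not counted. It was the only one of the 126 peaks of the axis to pass, and 26 had an unadjusted p below 0.05. No peak passed with replicate number as a term, nor without Ncor WT replicate 1, Ncor WT replicate 2, Ncor LKO replicate 1, Smrt WT replicate 1, Smrt LKO replicate 1 or Smrt LKO replicate 3, and 4 passed without Smrt WT replicate 2; these fits were chosen after seeing the data. The Smrt-line livers carried female signals, so line and sex cannot be told apart.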

How the results depend on the processing

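For RNA, the axis genes were chosen on this contrast, so nothing is read from their counts: 8 were called, and 9 (with Igf1) without LKO replicate 2 and with the trend on exon length removed. The groups of the ChIP-seq comparisons hold 1 to 3 samples, and the causes of the shifts below were not tested.

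With TMM scaling, called axis peaks numbered 7 for NCOR in Gps2 LKO, 4 for NCOR in Ppara KO (2 higher), 3 for GPS2 in Ncor LKO, 4 for PPARα in Gps2 LKO, 5 for PPARα in Ncor LKO and 0 for PPARα in Ppara KO. Loci numbered 1 each for H3K27ac in the Gps2 and Ncor lines, NCOR and PPARα in Gps2 LKO and PPARα in Ppara KO, and 2 for GPS2 in Ncor LKO. DESeq2 gave 23 peaks for H3K27ac in Ncor LKO, 2 and 1 for NCOR in Gps2 LKO and Ppara KO, 46 peaks and 10 loci for GPS2 in Ncor LKO, 4 peaks for PPARα in Gps2 LKO, 4 loci for GPS2 and 0 for NCOR in Ppara KO. The filterByExpr filter gave 2 and 5 peaks for NCOR in Gps2 LKO and Ppara KO and 11 for GPS2 in Ncor LKO. Testing all peaks of the shared table gave 11 for H3K27ac and 0 for H3K4me3. With each PPARα library of the Gps2 line as its own sample, 100 peaks were called.

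The samples share only replicate numbers. A replicate block gave 14 peaks for H3K27ac in Gps2 LKO, 9 peaks and 1 locus in Ncor LKO, 3 peaks and 0 loci for NCOR in Ppara KO, 45 peaks and 6 loci for GPS2 in Ncor LKO, 100 peaks for PPARα in Gps2 LKO (each library its own sample; chosen after seeing the data), 0 peaks for PPARα in Ppara KO and 0 for the Ncor against Smrt difference. RNA calls of the axis stayed at 8 under the block.

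Leaving out 1 library gave 0 to 20 peaks and 0 to 5 loci for H3K27ac and 3 to 4 and 0 to 2 for H3K4me3 in Gps2 LKO, 4 to 12 and 0 to 3 for H3K27ac in Ncor LKO, 0 to 4 and 0 for NCOR in Gps2 LKO, 2 to 12 and 0 to 1 for NCOR in Ppara KO, 0 to 95 and 0 to 10 for GPS2 in Ncor LKO, 11 to 21 and 2 to 8 for PPARα in Gps2 LKO, 0 to 6 and 0 for PPARα in Ncor LKO, 0 to 34 and 9 to 10 for PPARα in Ppara KO, 0 to 4 peaks for the Ncor against Smrt difference, and 0 for H3K27ac in Smrt LKO and GPS2 in Ppara KO.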

Other observations

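Among genes with a mean of at least 100 normalized reads, those whose RNA ran most like that of Cux2 over the 8 livers were Mthfd1l, a mitochondrial folate enzyme (Pearson’s r of log2(reads + 1) 0.991), Mxra8 (0.990) and Fgf21, a fasting hormone of the liver (0.989), which went from 12.3 ± 3.7 in WT to 246 ± 35 in LKO livers. For Lepr they were Fads1, a fatty acid desaturase (0.996), Nt5e (0.996) and the sterol transporter gene Abcg5 (0.995). All 8 points share the contrast between WT and LKO, which sets most of these values, and they are a description.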
